A study of Mus musculus with 48 samples.

Results

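Fragments from the 3' end of mature tRNAs, called 3'-tRFs, were measured in 2 ganglia of the mouse after injection of bacterial lipopolysaccharide, which sets off systemic inflammation. The table of tRNA fragments (tRFs) lists 13007 tRFs, of which 1669 are typed as 3'-tRFs. Those whose every annotated location is in a tRNA for asparagine (Asn) or aspartate (Asp) were set aside, which left 1544. Of these, 95 had 10 or more counts in at least 12 of the 48 libraries, and these 95 are described here. They hold 405119 counts, 94.0% of the counts of the 1544. The same count rule kept 500 tRFs of all types, and 10 of those were 3'-tRFs of Asn or Asp. Just inside the rule were tRF-17-0RSSX7J (ThrCGT) and tRF-21-WEKSP185D (AlaTGC), which reached 10 counts in 13 libraries each, and just outside it were tRF-20-BMW36D46 (GlnCTG) and tRF-22-WE8SP6X52 (GlyGCC), which reached it in 11.

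Short RNA was sequenced from TG, the trigeminal ganglion, which holds the sensory neurons of the face, and from SCG, the superior cervical ganglion, whose sympathetic neurons innervate the head and neck. Balb/c mice of 2.5 months had an intraperitoneal injection of saline (0.2 mL) with or without lipopolysaccharide (LPS) of Escherichia coli O55:B5, at a dose of 2.5 mg/kg, and ganglia were collected after 4 h, 24 h or 7 d. This gave 12 groups of 4 libraries: TG after LPS at each time, TG after saline at each time, SCG after LPS at each time and SCG after saline at each time. Each group held 2 female and 2 male libraries from different mice, and each library pooled both ganglia of a kind from 1 mouse. No group carried a genetic change. The labels do not say which TG and SCG libraries came from the same mouse. All SCG libraries are numbered before the TG ones, and all female libraries of a ganglion are numbered before the male ones.

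Mature tRNAs end in CCA, 3 bases that the enzyme TRNT1 adds after transcription and to which the amino acid is joined. A 3'-tRF arises by a cut in the T loop and keeps that end, and most such fragments fall into a shorter class of about 18 nt and a longer class of about 22 nt. Argonaute proteins, the carriers of microRNAs, bind them. In mouse stem cells the shorter class interferes with reverse transcription of retrotransposons that use tRNAs as primers, and the longer class silences them after transcription. In human cells a 3'-tRF of LeuCAG promotes translation of a ribosomal protein mRNA, and a 22-nt 3'-tRF of GlyGCC represses RPA1 in B cells.

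The sequences below are those on which the results turn, as given in the deposited annotation. They show the shorter and longer fragments of the same parents, and capitals mark the CCA end.
tRF-18-8R6Q46D2 (AlaCGC or AlaTGC): tccccggcatctccaCCA
tRF-22-WEKSPM852 (AlaCGC or AlaTGC): tcgatccccggcatctccaCCA
tRF-22-WEKSP1852 (AlaTGC): tcgatccccggcacctccaCCA
tRF-18-H9R8B7D2 (GlnCTG): atctcggtggaacctCCA
tRF-22-8BWS72092 (GlnCTG): tcaaatctcggtggaacctCCA
tRF-18-HR0VX6D2 (LeuAAG or LeuTAG): atcccaccgctgccaCCA
tRF-17-08Q2B52 (ValAAC or ValCAC): accgggcggaaacaCCA
17-nt fragment of CysGCA: tccgggtgccccctCCA
tRF-18-HRH7MSD2 (SerGCT): atcccatcctcgtcgCCA
tRF-17-KS8WP92 (ThrCGT): ccccgtccgtgcctCCA
tRF-22-WE8SPOX52 (GlyGCC): tcgattcccggccaatgcaCCA
tRF-39-0VL8K87SIRMM12E2 (GluCTC or GluTTC): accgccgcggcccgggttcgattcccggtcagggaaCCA
The AlaCGC/AlaTGC pair and the GlnCTG pair show the nesting: the 18-nt fragment is the longer one without its first 4 bases. Fragments of one parent are therefore not independent of each other. The locations in the annotation are human ones, so parent names are those of the annotation, and positions in the genome are left out. A read that fits several tRNA genes cannot be assigned to one of them, and 36 of the 95 fragments fit at least 2 isoacceptors.

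Of the 95 fragments, 56 were 16 to 19 nt long and held 73.5% of the counts, 35 were 21 to 23 nt long and held 25.4%, and 4 were longer and held 1.09%. None was 20 nt long. Counted back from the last base of the CCA end, the 5' end lay at base 18 in 29 fragments with 47.2% of the counts, at base 22 in 33 with 24.8%, and at base 17 in 16 with 23.2%. All 33 fragments that start at base 22 begin with TC and have A as the last base before the 18-nt start: 27 begin with TCGA and 6 with TCAA. Of the 29 that start at base 18, 19 are contained in one of the 33, and in 19 of 19 the base in front of them is A.

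**Figure D1:**
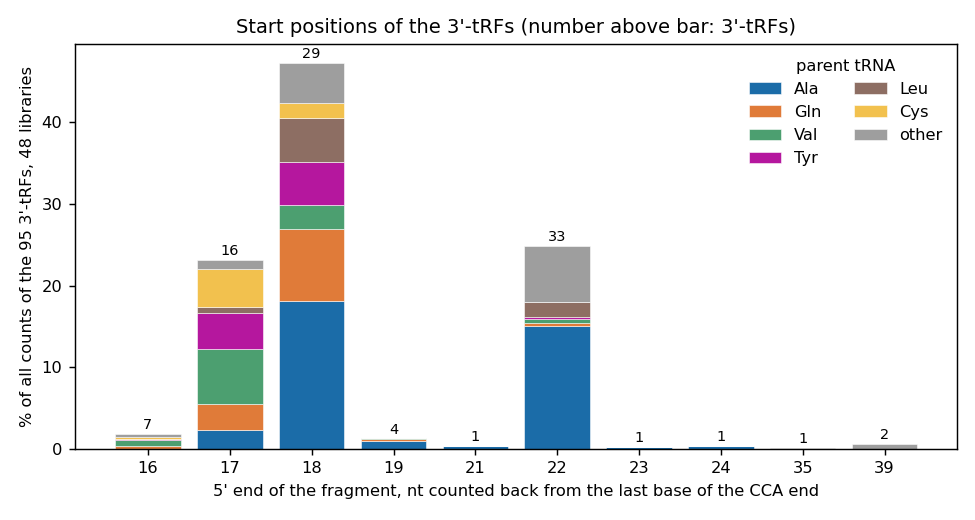
Share of all counts of the 95 3'-tRFs over 48 libraries (y axis, %) by the position of the 5' end, counted back from the last base of the CCA end (x axis, nt), with bars split by parent tRNA and the number of 3'-tRFs above each bar. Starts at 17, 18 and 22 nt hold 23.2%, 47.2% and 24.8% of the counts.

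The complete CCA end was the rule: 69 fragments end in CCA and held 86.6% of the counts, and 26 end in CC. Each of the 26 is the same sequence as one of the 69 without the last A. How much of a pair was the CC form depended on the parent. It was 4.19% for GlnCTG at start 18 and 5.60% for the most abundant 22-nt Ala fragment, against 52.6% and 59.2% for the 2 GluTTC pairs at start 22 and 55.4% for MetCAT. The share of counts with a complete CCA end was 86.1 ± 1.29% in TG and 86.2 ± 1.32% in SCG (SD, n = 12 saline libraries each).

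Alanine tRNAs supplied 20 fragments with 37.3% of the counts. Gln supplied 7 with 12.9%, Val 8 with 11.1%, Tyr 8 with 9.99%, Leu 7 with 7.95%, Cys 5 with 6.73%, Gly 13 with 4.39%, Ser 8 with 3.5%, Glu 7 with 2.56% and Thr 5 with 1.93%. Met, Arg, Trp and Pro had 1 to 3 fragments each and under 1% of the counts. His, Ile, Lys and Phe had none, although the table lists 8, 27, 65 and 38 3'-tRFs for them. No fragment was annotated as mitochondrial.

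Parents differed in which length they gave. In Gly 76.0% of the family's counts lay in fragments of 21 to 23 nt, in Met 87.7% and in Glu 71.1%. In Ala it was 41.6%, in Leu 22.4% and in Thr 19.3%. In Val it was 4.62%, in Ser 4.19%, in Gln 3.48% and in Tyr 1.89%, so these parents were seen almost wholly as short fragments, and all 5 Cys fragments were short.

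The most abundant fragment was tRF-18-8R6Q46D2 of AlaCGC/AlaTGC, with a mean of 5077 CPM over the 48 libraries. CPM here are tRF counts scaled to a common library total with TMM factors. Its 22-nt partner tRF-22-WEKSPM852 averaged 4176 CPM. The 18-nt GlnCTG fragment tRF-18-H9R8B7D2 averaged 3225 CPM, the 18-nt Leu fragment tRF-18-HR0VX6D2 1867 CPM, the 17-nt Val fragment tRF-17-08Q2B52 1771 CPM and the 17-nt CysGCA fragment 1494 CPM. Behind them stood 2 TyrGTA fragments, tRF-18-YSQSD2D2 with 1410 CPM and tRF-17-884U1D2 with 1408 CPM. The GlyGCC 22-nt fragment tRF-22-WE8SPOX52 averaged 567 CPM. The 12 most abundant fragments held 62.9% of the counts. Levels of different fragments are counts as deposited, and how well each fragment was captured was not tested.

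The depth and the labels bear on all that follows. tRF counts per library ran from 61218 to 1511191 and those of the 95 fragments from 2813 to 28703, or 1.00% to 12.2% of the tRF counts. The sensory-neuron microRNAs of the miR-183 cluster (miR-183-5p, miR-96-5p and miR-182-5p) summed to between 57037 and 88281 CPM of the microRNA counts in TG saline libraries and to between 783 and 21076 CPM in SCG saline libraries. miR-218-5p, a sympathetic and motor neuron microRNA, was at 2141 to 2612 CPM in TG and at 24003 to 36937 CPM in SCG, so the saline libraries carry the markers of their labels. The library labelled SCG 7 d LPS replicate 2 did not: its miR-218-5p was at 295 CPM, against 20986 to 36937 CPM in the other 23 SCG libraries, and its 4 leukocyte microRNAs summed to 9670 CPM, against 288 to 758 CPM. The highest sensory-neuron sum among SCG saline libraries was in 24 h replicate 1. Muscle microRNAs were high in SCG 4 h saline replicates 1 and 2, with miR-1a-3p at 86498 and 19709 CPM. Among SCG LPS libraries miR-1a-3p was highest in 7 d replicate 2, at 33981 CPM, and in 4 h replicate 1, at 11875 CPM. In TG, 7 d saline replicates 1, 2 and 4 had the neuronal miR-124-3p at 624, 628 and 605 CPM, against 235 to 311 CPM in the other 9 TG saline libraries.

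TG was compared with SCG in the saline libraries, 12 against 12, to ask which fragments mark a ganglion without treatment. Short fragments of Tyr, Thr, Ser and Gln were lower in TG, by up to 2.7-fold. The long Glu fragments were up to 3.6-fold higher, but they met the count rule in TG only and are given as a description. The 2 most abundant Ala fragments and the main Cys fragment did not pass the test. Of the 95 fragments 32 passed, 3 higher in TG and 29 lower. The test was edgeR's quasi-likelihood test with Benjamini-Hochberg adjustment over 571 tRFs, of which 42.7% passed, 20.8% higher and 21.9% lower, so passing as such was no more frequent among the 95 than among all tRFs. The median log2 fold change, TG over SCG, was -0.25 over the 95 fragments and -0.04 over the 571 tRFs.

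The count rule itself favours no ganglion in number: 79 fragments reached 10 counts in 12 TG libraries, 79 did so in 12 SCG libraries, and 73 in both. Of the 32 that passed, 22 are among the 73, all lower in TG. All 3 that were higher reached 12 libraries in TG only, 4 that were lower did so in SCG only, and 3 that were lower did so in neither, so the calls of these 10 are not independent of the rule. The 3 higher ones are the long Glu fragments. The 4 of SCG only are tRF-16-3JWB61B (Tyr), tRF-17-8Y3HSV2 (Arg), tRF-17-KS8WP92 (Thr) and tRF-21-WE8S68L5D (Gly). Those of neither are tRF-16-3VLIE1B (Ser), tRF-17-0RSSX7J (Thr) and tRF-21-WEKSP185D (Ala). The number that passed was 18 without the 7 d libraries, 3 of which are the TG saline libraries with high miR-124-3p, left out after the data were seen, and 11 with no expression filter, where 9502 tRFs were tested. When only 3'-tRFs were kept in the model, a setting chosen after the data were seen, 41 of the 95 passed, 22 higher in TG and 19 lower. Fold changes are then relative to other 3'-tRFs, and the cause of the changed number was not tested. The share of all tRFs that passed in these other settings is not given here. In bulk tissue, fewer cells of a type and less RNA per cell cannot be told apart. Nor can ganglion and the order of the libraries, since all SCG libraries are numbered before the TG ones.

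The 2 length classes are given side by side, and the difference between their fold changes was not tested. The ratio of their counts is tested further below. Among fragments of 16 to 19 nt, 25 of 56 were lower in TG and 0 higher, with a median log2 fold change of -0.48. Among those of 21 to 23 nt, 4 of 35 were lower and 0 higher, with a median of -0.03. Of the 4 longer fragments, 3 were higher, all from Glu, and these met the count rule in TG only. Over all 571 tRFs 21.9% were lower and 20.8% higher. Of the 25 short fragments that passed, 7 came from Tyr, 5 from Ser, 4 from Thr and 4 from Gln, so few parents supply most of them. The counts moved with the setting. With 3'-tRFs alone in the model, 6 short fragments were higher and 18 lower, and 13 of 21 to 23 nt were higher and 1 lower. Without the 7 d libraries 14 short fragments were lower and 0 higher, and with no expression filter 9 were lower and 0 higher. By start position, 14 of the 29 fragments at base 18 were lower, against 4 of the 33 at base 22.

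All 8 Tyr fragments were lower in TG, with a median log2 fold change of -1.24. One of them, tRF-16-3JWB61B, met the count rule in SCG only. tRNA-Tyr carries the anticodon GTA and its genes hold an intron. The 17-nt fragment tRF-17-884U1D2 had 409 CPM in its lowest TG saline library, a median of 831 and 1362 in its highest, against 1000, 2055 and 4977 CPM in SCG. Of the 12 TG libraries 10 lay below every SCG library, and the log2 fold change was -1.41 ± 0.19 (SE, edgeR adjusted p = 1.84e-06). The 18-nt tRF-18-HSQSD2D2, which is the same sequence with 1 more base at its 5' end, had 123, 262 and 435 CPM in TG, against 294, 644 and 1509 CPM in SCG. Its log2 fold change was -1.43 ± 0.20 (edgeR adjusted p = 2.55e-06), and the groups overlapped between 294 and 435 CPM. The other 18-nt Tyr fragment, tRF-18-YSQSD2D2, had 536, 951 and 1281 CPM in TG, against 997, 1711 and 2951 CPM in SCG, a log2 fold change of -0.97 ± 0.17 (edgeR adjusted p = 4.29e-05). The only 22-nt Tyr fragment, tRF-22-WE884U1D2, moved least, by -0.64 ± 0.26 (edgeR adjusted p = 0.0443). Under the other settings tried, 6 to 8 of the 8 were lower and 0 higher, and 7 or 8 were lower with any single library left out. No Tyr fragment of another type had enough counts to be tested.

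Within the short class the Tyr share could be read without any scaling. Tyr made up 10.5 ± 1.87% of the counts of 16 to 19 nt in TG saline libraries and 17.8 ± 4.41% in SCG saline libraries (SD, n = 12 each). This share was chosen as a measure after the data were seen. As a share of the counts of all 95 fragments, Tyr made up 7.35 ± 1.30% in TG and 13.8 ± 4.17% in SCG.

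**Figure D2:**
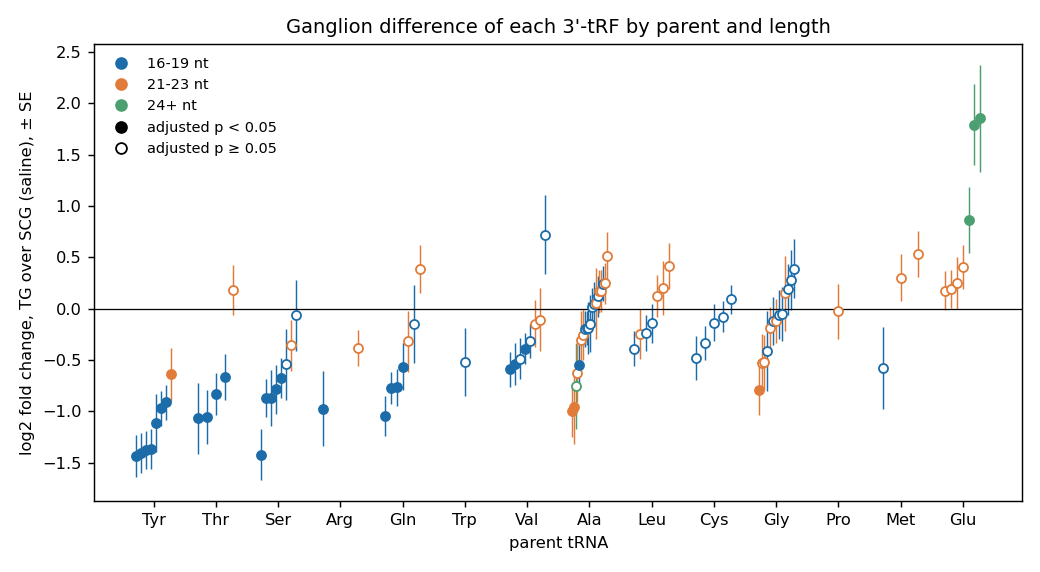
Log2 fold change, TG over SCG in saline libraries (y axis, edgeR estimate ± SE), of each of the 95 3'-tRFs, grouped by parent tRNA (x axis), coloured by length, and filled where the adjusted p is under 0.05. All 8 Tyr fragments lie below 0, between -1.43 and -0.64, and all 7 Glu fragments lie above it.

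Of the 5 Thr fragments 4 were lower in TG, and the fifth is the only long one. Without the 7 d libraries 1 was lower, and likewise 1 with no expression filter. tRF-17-KS8WP92 of ThrCGT had 24.4, 36.7 and 109 CPM in TG (lowest, median, highest), against 40.2, 84.5 and 164 CPM in SCG, a log2 fold change of -1.06 ± 0.26 (edgeR). This fragment met the count rule in SCG only, so its values are given as a description. The most abundant one, tRF-18-HRF8X7D2 of ThrAGT, had 113, 216 and 317 CPM in TG, against 167, 320 and 629 CPM in SCG, and differed by -0.67 ± 0.22 (edgeR adjusted p = 0.0160). For both, the ranges overlapped while the TG median lay below that of SCG.

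Of the 8 Ser fragments 5 were lower and the other 3 had negative values that did not pass. Without the 7 d libraries 2 were lower, and with no expression filter 1. The serine tRNAs differ from most others by a long variable arm. tRF-18-HRH7MSD2 of SerGCT had 16.8, 50.6 and 86.0 CPM in TG, against 53.5, 140 and 184 CPM in SCG, and was 2.68-fold lower (log2 fold change -1.42 ± 0.25, edgeR adjusted p = 4.29e-05). The most abundant Ser fragment, tRF-18-H7PU4HD2 of SerAGA/SerTGA, had 386, 552 and 815 CPM in TG, against 455, 844 and 1442 CPM in SCG, a log2 fold change of -0.68 ± 0.19 (edgeR adjusted p = 0.00545).

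Of the 7 Gln fragments 4, all short, were lower in TG. Without the 7 d libraries 3 were lower, with no expression filter 1, and with 3'-tRFs alone in the model 3 were lower and 1 higher. The 2 long ones did not pass: the 22-nt GlnCTG fragment printed above had a log2 fold change of 0.38 ± 0.24 (edgeR adjusted p = 0.197) and the 22-nt GlnTTG fragment tRF-22-8BWS7K092 had -0.32 ± 0.29 (edgeR adjusted p = 0.408). The difference between short and long Gln fragments was not tested. The 18-nt tRF-18-H9R8B7D2 had 1677, 2344 and 3000 CPM in TG, against 2664, 3736 and 5706 CPM in SCG, a log2 fold change of -0.76 ± 0.18 (edgeR adjusted p = 0.00109). Of 19 Gln tRFs of other types tested, 8 were higher in TG and 3 lower, against 20.8% and 21.9% of all 571 tRFs. The 8 were among 13 internal fragments, of which 0 were lower. The 3 were among 5 fragments of the 5' end (5'-tRFs), of which 0 were higher.

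Val and Arg gave smaller numbers. Of the 8 Val fragments 3 were lower, but 1 to 4 were lower with any single library left out, 1 with size factors of the RLE kind and 1 without the 7 d libraries. Without SCG 4 h saline replicates 1 and 2, 0 Val fragments were lower and 1 higher, and it was the same in number with 3'-tRFs alone in the model. The most abundant, tRF-17-08Q2B52, missed the threshold with a log2 fold change of -0.49 ± 0.20 (edgeR adjusted p = 0.0502). tRF-17-8Y3HSV2 of ArgTCG had -0.97 ± 0.37 (edgeR), but it met the count rule in SCG only, so this value is given as a description. None of the 7 Leu, 5 Cys or 3 Met fragments passed, and 1 of 13 Gly fragments did. That one, the 21-nt GlyCCC fragment tRF-21-WE8S68L5D with -0.79 ± 0.25 (edgeR), also met the count rule in SCG only and is given as a description. The GlyGCC 22-nt fragment had -0.19 ± 0.20 (edgeR adjusted p = 0.482), and the single Pro fragment, tRF-22-8B8SOUPR2, had -0.03 ± 0.27 (edgeR adjusted p = 0.947). tRNA-Pro primes reverse transcription of murine leukaemia viruses.

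The Ala fragments, the largest family, showed which sequence differed. The 18-nt tRF-18-8R6Q46D2 had 3973, 4943 and 6426 CPM in TG (lowest, median, highest), against 1974, 5104 and 6851 CPM in SCG, and its log2 fold change was 0.02 ± 0.19 (edgeR adjusted p = 0.956). Its 22-nt partner had 3533, 4306 and 6820 CPM in TG, against 2327, 3651 and 6497 CPM in SCG, a log2 fold change of 0.17 ± 0.21 (edgeR adjusted p = 0.551). The ranges of TG and SCG overlapped widely for both. The 22-nt AlaTGC fragment tRF-22-WEKSP1852 is printed above beside them, and it was lower in TG. It had 381, 445 and 647 CPM in TG, against 321, 795 and 1956 CPM in SCG, a log2 fold change of -1.0 ± 0.25 (edgeR adjusted p = 0.00167). Under TMM scaling over all tRFs 3 of the 20 Ala fragments were lower and 0 higher, whereas with 3'-tRFs alone in the model 7 were higher and 1 lower. As a share of the 95 fragments, Ala made up 42.1 ± 2.22% in TG and 33.8 ± 3.77% in SCG, with no overlap between the 12 TG and the 12 SCG libraries. Shares of one whole are not independent of each other.

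All 7 Glu fragments had positive values and the 3 longest passed, but none of these 3 met the count rule in SCG: they reached 10 counts in 22, 22 and 12 of 24 TG libraries and in 9, 10 and 3 of 24 SCG libraries, for 39, 38 and 35 nt. Their values are therefore given as a description. The longest, 39 nt, reaches from the CCA end back past the T arm and into the anticodon arm. tRF-39-0VL8K87SIRMM12E2 had 58.8, 104 and 426 CPM in TG, against 9.25, 46 and 94.4 CPM in SCG, a log2 fold change of 1.79 ± 0.40 (edgeR). Its 38-nt form without the last A, tRF-38-0VL8K87SIRMM12V, had 19.3, 132 and 793 CPM in TG, against 9.86, 35.1 and 278 CPM in SCG (1.85 ± 0.52, edgeR). The 35-nt GluTTC fragment tRF-35-1HPSR9O9337KB6 had 22.4, 47.7 and 80.9 CPM in TG, against 0, 24.2 and 75.0 CPM in SCG (0.87 ± 0.32, edgeR), and it lost its call when any one of 5 of the 24 libraries was left out. Among 3'-halves in the same fit, 4 of 7 from Glu were higher in TG and 1 lower. Of all 12 3'-halves not from Asn or Asp, 8 were higher and 1 lower. Over the 103 Glu tRFs tested that are not 3'-tRFs, 18 were higher and 29 lower. Of all 571 tRFs 20.8% were higher and 21.9% lower.

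The long class was larger relative to the short class in TG. The log2 ratio of counts of 21 to 23 nt over counts of 16 to 19 nt was -1.23 ± 0.14 in TG and -1.72 ± 0.53 in SCG (SD, n = 12 saline libraries each), a difference of 0.49 (permutation test, two-sided, p = 0.00556). The SCG libraries spread more widely, from -2.51 to -0.72, and the ranges overlapped. Between the 2 Ala fragments printed first, the 22-nt over the 18-nt one, the log2 ratio was -0.14 ± 0.22 in TG and -0.25 ± 0.63 in SCG, a difference within the spread (permutation test, two-sided, p = 0.572). The same saline libraries differed in markers of other cells. Muscle microRNAs, 3 markers summed, had a median of 5697 CPM in TG (4126 to 15122) and of 509 CPM in SCG (199 to 94291). Erythroid microRNAs, 4 markers summed, were at 1048 to 5943 CPM in TG and 498 to 1690 CPM in SCG. Leukocyte microRNAs summed to 238 to 711 CPM in TG and 288 to 461 CPM in SCG. No marker of these lists was at 0, and the part of such cells in the ganglion differences was not tested. Without SCG 4 h saline replicates 1 and 2, 28 fragments passed, 4 higher in TG and 24 lower, and without SCG 24 h saline replicate 1, the SCG saline library with the highest sensory-neuron sum, 31 passed, 4 higher and 27 lower. The share of all tRFs that passed without these libraries is not given here.

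**Figure D3:**
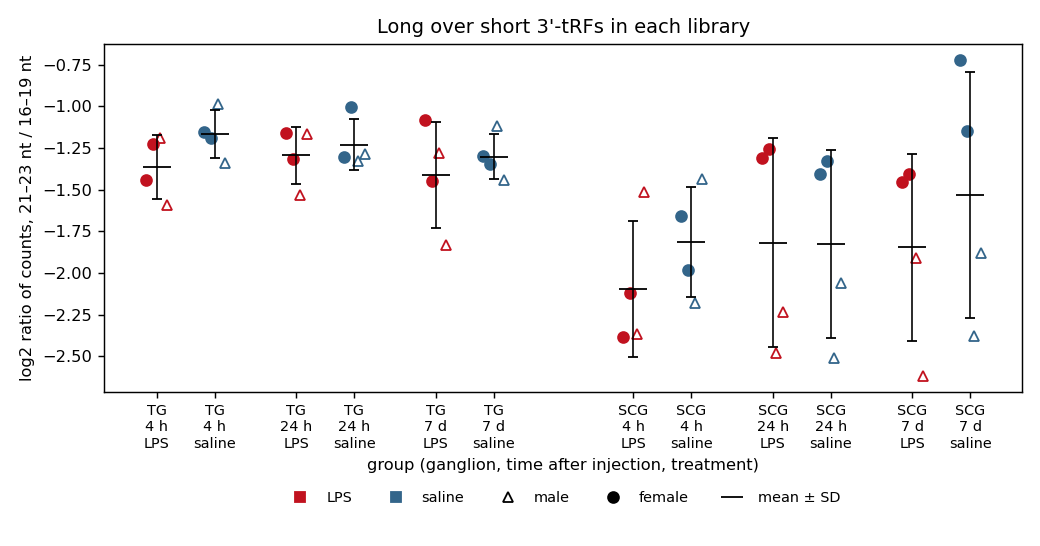
Log2 ratio of counts of 21 to 23 nt over counts of 16 to 19 nt (y axis) in each of the 48 libraries, by ganglion, time and treatment (x axis), with bars for the mean ± SD of 4 libraries and symbols for sex. TG groups average between -1.41 and -1.17 and SCG groups between -2.10 and -1.53.

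LPS was compared with saline in each ganglion at each time. No fragment passed in any of the 6 comparisons. edgeR's quasi-likelihood test called 0 of 94 fragments and 0 of 559 tRFs (0%) in TG, and 0 of 94 and 0 of 544 (0%) in SCG, at each time. At an unadjusted p under 0.05 there were 6, 5 and 3 fragments in TG at 4 h, 24 h and 7 d, among 21, 45 and 38 of all tRFs tested, and 2, 8 and 3 in SCG, among 39, 26 and 27. DESeq2 also called 0 of them in each comparison, and edgeR called 0 without SCG 7 d LPS replicate 2. The difference between the LPS effects in TG and in SCG was called for 0 of 95 fragments at each time among 729 tRFs (0%), with 0, 3 and 5 at an unadjusted p under 0.05, among 29, 35 and 29 of all tRFs, and 0 by DESeq2. One fragment was not tested in TG, tRF-17-0RSSX7J, and one in SCG, tRF-35-1HPSR9O9337KB6, for low counts.

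The fold changes of the fragments lay to one side in several comparisons. The median log2 fold change in TG, LPS over saline, was -0.19 at 4 h, -0.14 at 24 h and 0.01 at 7 d, against -0.03, -0.02 and 0.02 over all tRFs tested. In SCG it was -0.30 at 4 h, 0.38 at 24 h and 0.19 at 7 d, against -0.05, 0.08 and 0.10 over all tRFs. In SCG at 4 h, 82 of 94 fragments had values below 0, against 291 of all 544 tRFs tested. Among the 82 were all 35 of 21 to 23 nt, with a median of -0.54. In SCG at 24 h, 79 of 94 had values above 0, against 298 of 544. Many fragments are nested forms of the same parent, so these are not separate observations, and none passed. The sign of the 4 h medians depends on scaling: with library sizes taken from the microRNA counts, the SCG 4 h median was 0.05 (0.34 over all tRFs) and the TG 4 h median 0.03 (0.17 over all tRFs). Under both scalings the 4 h median of the fragments lay below that of all tRFs. A change of library sizes moves all tRFs of a comparison by nearly the same amount, so the second scaling is no separate check of this.

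**Figure D4:**
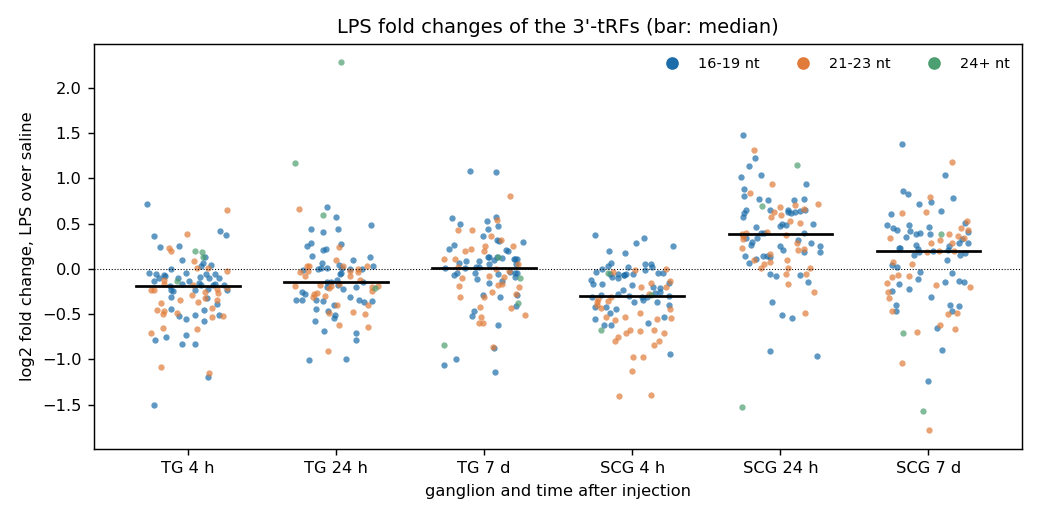
Log2 fold change, LPS over saline (y axis, edgeR estimate), of each tested 3'-tRF by ganglion and time (x axis), coloured by length, with a bar at the median. Medians lie at -0.19, -0.14 and 0.01 in TG and at -0.30, 0.38 and 0.19 in SCG at 4 h, 24 h and 7 d, and no point passed an adjusted p of 0.05.

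No difference in the length ratio by treatment passed the test. In TG it was -1.36 after LPS and -1.17 after saline at 4 h (exact permutation test, two-sided, p = 0.143), -1.29 and -1.23 at 24 h (exact permutation p = 0.543), and -1.41 ± 0.32 and -1.30 ± 0.14 at 7 d (SD, n = 4 each, exact permutation p = 0.657). In SCG it was -2.10 after LPS and -1.81 after saline at 4 h (p = 0.286 by the same exact permutation test), -1.82 and -1.83 at 24 h, and -1.85 and -1.53 at 7 d. In SCG at 7 d the female libraries had -1.45 and -1.41 after LPS, the second of them replicate 2, against -0.72 and -1.15 after saline, while the male means were -2.26 after LPS and -2.13 after saline. With treatment permuted within sex, added after the data were seen, the exact permutation p ran from 0.222 to 0.889 over the 6 comparisons, and the smallest p of that test is 0.0556. Without SCG 7 d LPS replicate 2 the 7 d difference, LPS minus saline, was -0.46 (exact permutation p = 0.4). The smallest p that 4 against 4 libraries allow without regard to sex is 0.0286.

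The smallest adjusted p of any LPS comparison, 0.507, belonged to TG at 24 h, where tRF-18-HSQSD2D2 of TyrGTA had a log2 fold change of -1.0 ± 0.32 (edgeR). It had 114, 167, 146 and 132 CPM in the LPS libraries, against 159, 263, 281 and 435 CPM in the saline libraries. Only 1 LPS library lay above the lowest saline one. The 18-nt tRF-18-YSQSD2D2 had 700, 887, 886 and 859 CPM after LPS, against 987, 1109, 893 and 1137 CPM after saline, so its LPS libraries lay below all saline ones. It was the only one of the 95 to do so in this comparison, 2 others lay above, and among the 559 tRFs tested 1.43% lay below and 0.358% above. The 17-nt tRF-17-884U1D2 had 514, 700, 567 and 553 CPM after LPS, against 663, 955, 888 and 1362 CPM after saline, and overlapped in 1 library. In SCG at 24 h tRF-17-884U1D2 had 2368, 1185, 1683 and 1831 CPM after LPS, against 1610, 2044, 2711 and 4977 CPM after saline, with overlap. The median log2 fold change of the 8 Tyr fragments was -0.62, -0.53 and 0.34 in TG and -0.27, -0.28 and 0.29 in SCG at 4 h, 24 h and 7 d.

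The Tyr share of the short fragments, a measure chosen after the data were seen, was lower 24 h after LPS in both ganglia without passing adjustment. In TG it was 8.25, 9.27, 7.10 and 8.11% after LPS, against 10.1, 10.2, 12.6 and 12.5% after saline. In SCG it was 13.1, 12.9, 13.7 and 13.5% after LPS, against 15.6, 19.9, 23 and 28.3% after saline. No LPS library reached the lowest saline library in either ganglion, and the 4 SCG LPS libraries lay within 1 percentage point of each other while the saline ones spread widely. The means were 8.19 ± 0.888% against 11.4 ± 1.41% in TG and 13.3 ± 0.361% against 21.7 ± 5.34% in SCG (SD, n = 4 each). Both differences had the smallest exact permutation p for this design, 0.0286 two-sided, which became 0.0857 after Benjamini-Hochberg adjustment over the 6 comparisons. At 4 h it was 9.17% after LPS and 10.7% after saline in TG (exact permutation p = 0.0571), and 16.2% and 16.1% in SCG. At 7 d it was 10.8% and 9.33% in TG, and 16% and 15.5% in SCG, with overlapping libraries. Without SCG 7 d LPS replicate 2 the 7 d difference in SCG, LPS minus saline, was 1.96 percentage points (exact permutation p = 0.4).

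**Figure D5:**
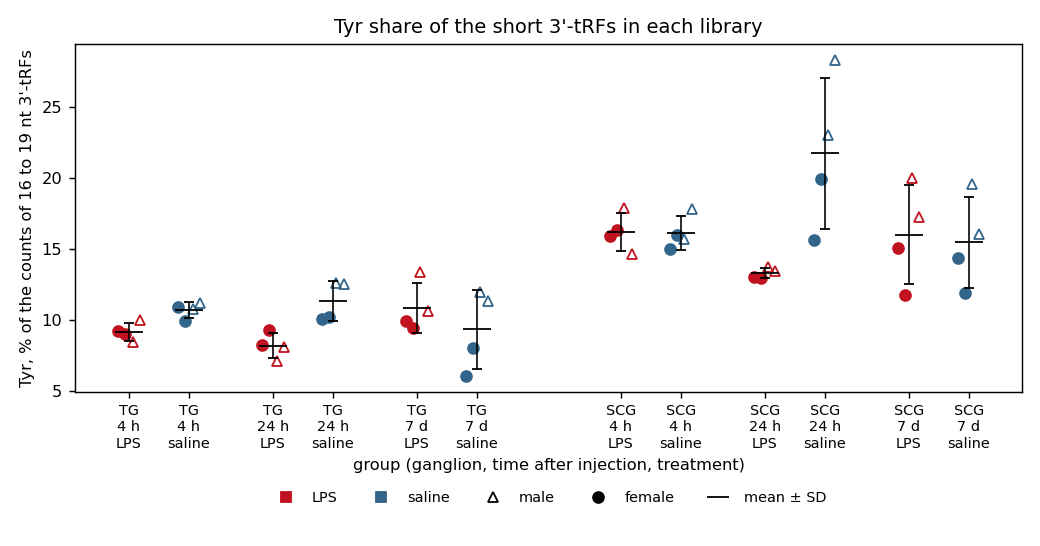
Tyr fragments as a share of all counts of 16 to 19 nt (y axis, %) in each of the 48 libraries, by ganglion, time and treatment (x axis), with bars for the mean ± SD of 4 libraries and symbols for sex. At 24 h the LPS libraries lie at 7.10 to 9.27% in TG and 12.9 to 13.7% in SCG, below all saline libraries of the same ganglion and time.

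At 24 h the leukocyte microRNAs, 4 markers summed with none at 0, were at 356 to 506 CPM in TG after LPS, against 263 to 711 CPM after saline, and at 372 to 758 CPM in SCG after LPS, against 318 to 372 CPM after saline. Sensory-neuron microRNAs in SCG were at 221 to 933 CPM after LPS, against 783 to 21076 CPM after saline, and their highest library, replicate 1 of the saline group, had the lowest Tyr share of that group, 15.6%. The part of other cells in the Tyr share was not tested. The erythroid sum in TG was 967 to 2966 CPM after LPS, against 1048 to 5943 CPM after saline.

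The other fragments at the head of each comparison came from several parents, were chosen after their values were seen, and none passed. In TG at 4 h the 22-nt GlnCTG fragment had a log2 fold change of -1.09 ± 0.37 (edgeR adjusted p = 0.934). In TG at 24 h the 24-nt Ala fragment tRF-24-7SHRMFWRE2 had 2.28 ± 0.79 (edgeR adjusted p = 0.507), with 1367, 91.6, 21.6 and 169 CPM after LPS, against 47.1, 104, 49.3 and 50.7 CPM after saline, so 1 library carries most of it. In TG at 7 d tRF-17-8SPOL52 of GlyTCC had 1.07 ± 0.43 (edgeR adjusted p = 0.639). In SCG at 4 h the Pro fragment had -1.40 ± 0.60 (edgeR adjusted p = 0.635). In SCG at 24 h tRF-17-HR0VX6J, the CC form of the main Leu fragment, had 1.04 ± 0.33 (edgeR adjusted p = 0.854). In SCG at 7 d the 23-nt Ala fragment tRF-23-YU8R6Q46D2 had -1.78 ± 0.68 (edgeR adjusted p = 0.831).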

How the data were processed

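The authors deposited whole-number counts per tRF and per mature microRNA for 48 libraries, not normalised. FastQC 0.11.9 and the mouse build GRCm39 are named in the submitters' processing notes, and flexbar, a read trimmer, in the headers of the tRF table. The name of the aligner or counter was not given in the sources used here. Libraries were made from 140 ng of total RNA (mean RNA integrity number 8.3, 6.4 to 9.3) with a ligation-based kit, per the labels' protocols. The 3'-tRFs described, and the lists and tests, were chosen with earlier results of these data known. The treatment of 1 TG library (24 h LPS) was read from its description, since its title misspells LPS.

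Counts were tested with edgeR 4.0.16 (R 4.3.3, TMM factors, filterByExpr with a minimum count of 10, robust quasi-likelihood fit, threshold of 0.05 on the adjusted p). Each ganglion's 24 libraries were fitted together with 6 groups and sex. The 24 saline libraries were fitted with ganglion, time and sex, and all 48 libraries for the difference of LPS effects. Single values per library were tested with exact permutation tests (70 assignments for 4 against 4) or 100000 resamples (12 against 12). The scripts were tested on simulated counts. Fragments were named by abundance (the 12 highest mean CPM and the highest of each parent) and by fold change among those that passed. DESeq2 1.42.0, other scalings, no filter, no sex term and left-out libraries were tried as alternatives. Precision is limited by 4 libraries per group. Within a ganglion, p-values measure the spread between libraries of different mice, and that spread holds the spread of their preparation too. Tests across ganglia hold no mouse term and treat TG and SCG libraries as independent, although some may come from the same mouse.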

Additional observations from a re-analysis of the deposited data

Results flagged for a closer look

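In groups of 4 libraries, 14 of 192 sets of values held a library whose distance from its nearest neighbour exceeded Dixon's 95% critical value, a rate of flags that chance alone brings to about 1 in 20. Most concern Glu and Tyr fragments or the share of counts. None was tested for a cause.

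The 95 fragments made up 12.2% of tRF counts in SCG 24 h LPS replicate 1, against 2.94 to 4.39% in the other 3 libraries, and 1.97% in SCG 4 h saline replicate 1, against 4.21 to 4.59%. In that saline library, one of those high in muscle microRNAs, Tyr made up 11.5% of the fragments' counts, against 12.9 to 13% in the others, and 83.2% of counts had a complete CCA end, against 87 to 87.7%. A complete CCA end was also low in TG 7 d saline replicate 4, at 82.8%, against 86.8 to 87%. The log2 ratio of long over short counts was -1.0 in TG 24 h saline replicate 2, against -1.32 to -1.29.

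Glu made up 4.70% of the fragments' counts in TG 7 d LPS replicate 3, against 2.26 to 2.48%, 6.08% in TG 4 h saline replicate 2, against 2.91 to 3.13%, and 1.03% in SCG 7 d LPS replicate 4, against 1.89 to 2.02%. The 39-nt Glu fragment tRF-39-0VL8K87SIRMM12E2 stood apart in the first 2 of these libraries, at 468 CPM in TG 7 d LPS replicate 3, against 22.2 to 90.2 CPM, and at 426 CPM in TG 4 h saline replicate 2, against 67.3 to 106 CPM.

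Among Tyr fragments, tRF-18-YSQSD2D2 was at 1068 CPM in TG 4 h LPS replicate 4, against 828 to 868 CPM, and at 699.9 CPM in TG 24 h LPS replicate 1, against 859 to 887 CPM. tRF-17-884U1D2 was at 773 CPM in TG 4 h LPS replicate 3, against 475 to 522 CPM.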

How the results depend on the processing

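Between the ganglia 32 of the 95 fragments passed, against 42.7% of the 571 tRFs tested. With no expression filter (9502 tRFs tested) 11 fragments passed, and 18 without the 7 d libraries, a setting added after the data were seen. DESeq2 gave 34, size factors of the RLE kind 30, microRNA library sizes 35, no sex term 32 and the fit to 3'-tRFs alone 41. The share of all tRFs that passed in each of these settings is not given here, so the changes are no result about the fragments. With 1 library left out the count ran from 26 to 35. For LPS 0 fragments passed under every setting and with any library left out. In the comparison of male with female, DESeq2 called 2 fragments in SCG and 1 in TG, and edgeR called 0. The share of all tRFs that DESeq2 called there is not given here, so its calls are no result about the fragments. The fragments' share of tRF counts was 5.0 ± 1.99% in TG and 3.84 ± 1.54% in SCG saline libraries (permutation p = 0.127), but relative to microRNA counts (fragment counts per 1000000 of them) it was lower in TG, by a difference of -944 (permutation p = 8e-05); with 1 library left out the difference in share ran from 0.880 to 1.45 percentage points, the highest without SCG 24 h saline replicate 4 (permutation p = 0.048). Relative to microRNA counts the LPS difference turned positive in SCG at 4 h (3.67), TG at 4 h (61.7) and TG at 24 h (218). In SCG at 7 d the difference in share was -0.0146 percentage points with no minimum count, and ran from -0.508 to 0.580 with 1 library left out; in SCG at 24 h it ran from -0.174 to 3.03. The difference in log2 length ratio in SCG at 24 h was -0.13 for 22 over 18 nt alone and ran from -0.22 to 0.23 with 1 library left out, in TG from -0.108 to 0.0145 at 24 h and from -0.219 to 0.0311 at 7 d. The LPS difference in Tyr share of the short fragments at 24 h ran from -10.5 to -6.22 percentage points in SCG and from -3.59 to -2.74 in TG with 1 library left out, with an exact permutation p of 0.0571, the smallest that 3 against 4 allow; as a share of all fragments it was -6.65 in SCG (exact permutation p = 0.0571). It ran from -0.488 to 0.622 in SCG at 4 h and from -0.785 to 1.96 at 7 d. The causes of these changes were not tested. No paired analysis was possible because the labels give no replicate numbers shared between groups and do not tie TG and SCG libraries to a mouse. Fragments with few counts, such as the long Glu ones, are limited by depth.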

Other observations

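Sex, a term in every model, was looked at after the data were seen, because the symbols in the plot of the length ratio separated in SCG. Over the 6 SCG groups the log2 ratio of long over short counts averaged -2.13 in male and -1.51 in female libraries. The difference within groups was -0.62 (exact permutation of sex within groups, 46656 assignments, two-sided, p = 0.00489), and it was lower in male libraries in 4 of 6 groups. Without SCG 7 d LPS replicate 2 it was -0.61 (p = 0.00819 by the same exact permutation). In TG the ratio averaged -1.34 in male and -1.25 in female libraries (p = 0.254 by the same exact permutation).

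The Tyr share of the short fragments in SCG was 18.1% in male and 14.8% in female libraries, and higher in male libraries in 6 of 6 groups (exact permutation of sex within groups, p = 0.0015). In TG it was 10.7% in male and 9.19% in female libraries, and higher in male libraries in 5 of 6 groups (p = 0.0147 by the same exact permutation). The Glu share of all fragments was 1.55% in male and 2.23% in female SCG libraries and lower in male libraries in 6 of 6 groups. No fragment passed between male and female with edgeR's quasi-likelihood test. Female libraries of each ganglion carry the lower library numbers, so sex and the order of the libraries cannot be told apart.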
